A study of Mus musculus with 8 samples.

Results

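The genes described here build the acetylcholine receptor of skeletal muscle and gather it at the nerve terminal. They are 10 genes chosen by name: the subunit genes Chrna1, Chrnb1, Chrnd, Chrng and Chrne, the clustering genes Rapsn, Musk, Dok7 and Agrn, and Ache, which encodes the enzyme that breaks acetylcholine down. Of 18193 genes with a probe set of their own on the array these 10 had 14 probe sets, and no probe set named one of them together with another gene. The samples were palate tissue from newborn BALB/c pups at P1, which the labels place in the rear part of the palate. Pregnant dams had carried a minipump under the skin that delivered physiological saline (0 mg/kg/day of nicotine) or nicotine at doses of 1.5, 3.0 and 4.5 mg/kg/day. Each of these 4 groups had 2 arrays, named biological replicates in the labels. The extraction protocol gives n = 2 for the pups without saying whether an array held a single pup or a pool, and p-values therefore measure the spread between these samples only. The treatment was given to the dam, so that pups of a litter shared it, and which pups shared a litter is not known here.

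The muscle nicotinic receptor is a channel of 5 subunits that opens when acetylcholine, or nicotine, binds. In fetal muscle it is built of alpha, beta, gamma and delta subunits, and as the endplate matures after birth the epsilon subunit takes the place of gamma. Receptors are gathered under the nerve by agrin, a matrix protein that acts through the receptor kinase MuSK, its adaptor Dok-7 and the scaffold protein rapsyn. Muscle that lacks innervation, as in the early fetus or after the nerve is cut, makes the subunits along the whole fibre under the control of myogenic factors that bind E-boxes.

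Several facts of the arrays touch every value below. Intensities are the authors' linear summaries per probe set, with array medians of 20.7 to 25.4. Fold changes and tests were made on log2(intensity + 16) after scaling all arrays to the same distribution. A log2 fold change on that scale understates the change of dim genes. Genes typical of the stomach were bright in saline arrays only: the summed level of 13 stomach genes lay between 197 and 226 in the 6 nicotine arrays and was 10740 and 11140 in the 2 saline arrays. Pgc, Gast and Lipf of that list stayed below the level filter on all 8 arrays. For 14 intestine genes the sum was 262 to 3125 in nicotine arrays and 21230 to 25350 in saline arrays, 11 of 12 tested were lower with the mean of the doses, and Cdx1 stayed below the filter throughout. Summed liver gene levels (12 genes) lay between 97.0 and 137 on 5 nicotine arrays, at 19780 on replicate 2 of nicotine 1.5, and at 14880 and 39360 in saline. Of 13 palate genes 9 or 10 stood above the level filter on each array, their summed level was 935 to 1545 in nicotine arrays and 466 and 731 in saline arrays, and Tbx22 stayed below the filter throughout. The actin probe sets gave a 3'/5' ratio, which grows as RNA degrades, of 1.70 ± 0.07 in saline (SD, n = 2), then 1.29 ± 0.13, 1.10 ± 0.06 and 1.05 ± 0.14 with dose. Tissue makeup and RNA integrity thus differed between the same groups as nicotine, and the 3 cannot be told apart here.

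Skeletal muscle markers also differed between the groups. The summed level of 20 muscle fibre genes was 61880 to 77440 in the 6 nicotine arrays and 53520 and 39490 in saline replicates 1 and 2. None of the 20 was below the level filter on any array. In tissue of mixed cells, fewer muscle cells and less RNA per muscle cell cannot be told apart.

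The promoter windows of 4 subunit genes are shown first, because Chrna1, Chrnb1 and Chrng were all higher with nicotine and Chrne encodes the adult subunit. Each window runs from 250 bases before to 50 bases after the start that the reference assigns to it on GRCm38.p6, and is printed 5′ to 3′ on the gene's strand. For Chrna1 and Chrng this start is the outer end of the gene in the reference. For Chrnb1 and Chrne it lies inside the gene, so distances hold for the start of the window only. Capitals mark every E-box, spelled CANNTG, and in Chrne also the N-box, spelled CCGGAA and known as a binding site of GABP in genes switched on beneath the nerve. Both motifs were searched on both strands, and no match overlapped another in these windows.
Chrna1, chr2:73580289-73580588, minus strand: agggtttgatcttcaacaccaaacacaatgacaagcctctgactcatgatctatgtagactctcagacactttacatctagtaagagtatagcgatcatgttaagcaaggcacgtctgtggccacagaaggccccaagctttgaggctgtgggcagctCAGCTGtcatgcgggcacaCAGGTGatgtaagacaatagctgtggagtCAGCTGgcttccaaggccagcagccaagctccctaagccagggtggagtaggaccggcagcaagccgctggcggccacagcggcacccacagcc
Chrnb1, chr11:69795888-69796187, minus strand: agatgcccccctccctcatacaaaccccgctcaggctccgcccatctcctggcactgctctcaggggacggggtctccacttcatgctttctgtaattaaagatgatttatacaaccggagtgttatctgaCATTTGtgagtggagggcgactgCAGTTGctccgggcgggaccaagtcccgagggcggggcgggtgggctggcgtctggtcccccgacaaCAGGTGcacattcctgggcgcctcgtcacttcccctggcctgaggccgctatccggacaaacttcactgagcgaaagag
Chrng, chr1:87205561-87205860, plus strand: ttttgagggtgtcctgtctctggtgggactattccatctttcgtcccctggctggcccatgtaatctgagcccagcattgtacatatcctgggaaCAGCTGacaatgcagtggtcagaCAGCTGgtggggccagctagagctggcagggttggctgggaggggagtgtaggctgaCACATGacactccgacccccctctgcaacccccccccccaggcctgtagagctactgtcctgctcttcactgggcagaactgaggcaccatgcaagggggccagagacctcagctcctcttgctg
Chrne, chr11:70619145-70619444, minus strand: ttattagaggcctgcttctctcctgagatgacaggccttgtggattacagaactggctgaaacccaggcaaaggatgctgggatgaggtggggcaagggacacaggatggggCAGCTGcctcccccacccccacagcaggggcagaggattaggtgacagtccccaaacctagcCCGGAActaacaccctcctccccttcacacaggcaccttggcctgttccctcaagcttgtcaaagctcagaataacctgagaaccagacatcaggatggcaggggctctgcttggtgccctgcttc

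Chrna1, Chrnb1 and Chrng each held 3 E-boxes in these windows, and Chrne held 1. The E-box spelled CAGCTG, a palindrome, stood 92 and 44 bases before the start in Chrna1, 155 and 132 bases before it in Chrng and 138 bases before it in Chrne. Chrnb1 had none with those letters. Its E-boxes began 119, 96 and 29 bases before the start. The N-box of Chrne lay 76 bases before its start and was the only match among the windows of the 10 genes. In the reference, 8 of the 10 genes had a window, 10 windows in all, and Chrnd and Rapsn had none. Musk also held 3 E-boxes, with CAGCTG 68 bases before the start assigned to its window. The reference begins the Musk gene earlier, at 58285729 on chromosome 4, so this CAGCTG lies inside the gene. Ache and 1 of the 2 windows of Dok7 and of Agrn held 1 E-box, and the other window of Dok7 and of Agrn held none. Over 32851 windows of the same length in the reference, 72.3% held an E-box, 17.6% held 3 or more and 14.9% held an N-box. CAGCTG stood at least once in 16.3% of them and at 2 or more places in 1.90%, beside 4 and 2 of the 10 windows of these genes. These matches describe the letters only.

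Receptor subunit genes were higher in palates from nicotine-treated dams than in those from saline-treated dams. When the mean of the 3 doses was set against saline, Chrna1, Chrnb1, Chrnd and Chrng rose by 1.56-fold to 2.61-fold, Rapsn rose 1.97-fold, and Musk, Dok7, Agrn and Ache did not pass the test. Of 10 genes 9 were above the level filter (a mean log2 level of 4.94, equal to an intensity of about 14.8) and 5 of these 9 were higher at an adjusted p under 0.05, where 4.75% of the 13586 genes tested were higher. The median log2 fold change was 0.98 over the 9 genes and 0.07 over all genes tested. The genes were chosen with earlier results of these data known, so these shares are not a test of the set. Of 20 muscle fibre genes 9 were higher, with a median of 0.82. All p-values of this kind come from limma with Benjamini-Hochberg adjustment over all genes tested. On 8 of the 9 genes all 6 nicotine arrays lay above both saline arrays after scaling, as did 16.8% of all genes tested. Over all genes 646 were higher and 734 lower. With values as deposited the split was 346 higher and 926 lower. A further setting left out saline replicate 2 and nicotine 1.5 replicate 2, the arrays brightest in liver genes in their groups. The log2 change was then 1.08 for Chrnb1, 1.03 for Chrng, 0.89 for Rapsn, 0.83 for Chrna1 and 0.57 for Chrnd. Saline and nicotine 1.5 each kept a single array in this setting. The values are therefore effect sizes only and do not show that the 5 calls held. Saline replicate 1, which was kept, also had bright liver genes (summed level 14880), so liver genes still differed between the groups.

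**Figure D1:**
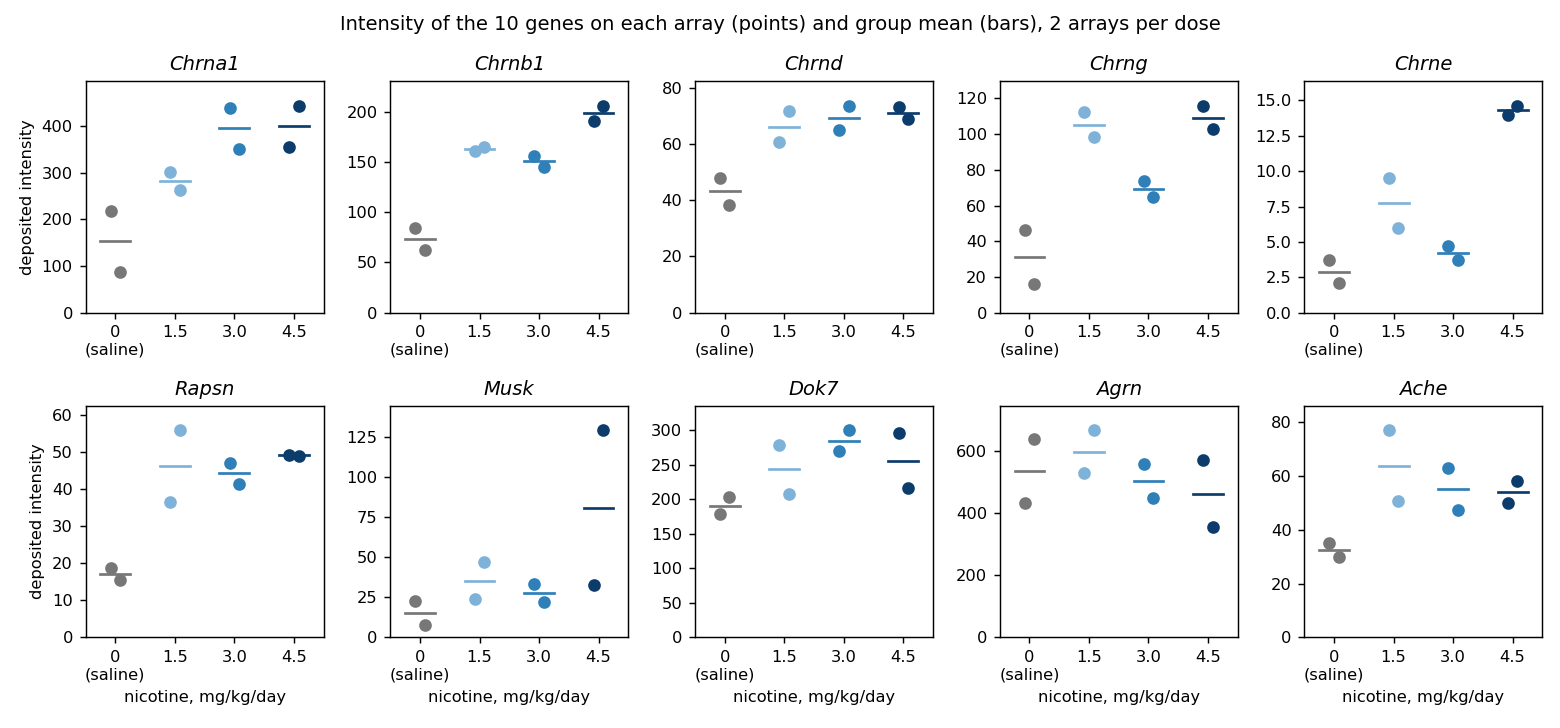
Deposited intensity (vertical axes, linear, from 0) of each of the 10 genes against nicotine dose in mg/kg/day, with 2 arrays per dose as points and their mean as a bar. All 6 nicotine arrays lie above both saline arrays in 8 panels, the exceptions being Musk, where replicate 2 of nicotine 3.0 (21.9) lies below saline replicate 1 (22.8), and Agrn. The share over all genes tested was taken only after scaling, where it was 16.8%. Among the 8 panels Chrne lies below the level filter, its lowest nicotine array at 3.74 and its highest saline array at 3.72.

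Chrnb1, the beta subunit, had the smallest adjusted p of the subunit genes. Its intensities were 83.7 and 61.9 in the saline arrays, 161 and 165 at 1.5 mg/kg/day, 156 and 145 at 3.0, and 191 and 206 at 4.5. No nicotine array came near saline, and both arrays at 4.5 were above those at the lower doses. Averaged over doses, Chrnb1 rose by 1.19 ± 0.14 (log2, SE), with an adjusted p of 0.00653. The rise passed at each dose, at 1.13 ± 0.18, 1.02 ± 0.18 and 1.44 ± 0.18 (adjusted p = 0.0313, 0.0329 and 0.00841). In the mean of the doses it was kept without any single array (1.06 to 1.34, adjusted p up to 0.0340). At 1.5 mg/kg/day the call was lost in 11 of 19 alternatives, at 3.0 in 9 and at 4.5 in 2, with adjusted p up to 0.405, 0.708 and 0.234.

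Chrng, the fetal gamma subunit, is read by 3 probe sets. The brightest had intensities of 46.4 and 16.2 in saline, 112 and 98.4 at 1.5 mg/kg/day, 73.8 and 65.0 at 3.0, and 116 and 103 at 4.5. Nicotine and saline arrays did not overlap, although the saline arrays stood far apart from each other, and both arrays at 3.0 mg/kg/day lay below those of the other doses. Averaged over doses, Chrng rose by 1.38 ± 0.23, with an adjusted p of 0.0177. It rose by 1.50 ± 0.28 at 1.5 mg/kg/day and 1.62 ± 0.28 at 4.5 (adjusted p = 0.0473 and 0.0255). At 3.0 it was at 1.03 ± 0.28 and did not pass (adjusted p = 0.0935). For the mean of the doses the call was lost without saline replicate 2 (0.98, adjusted p = 0.0503), without replicate 1 or 2 of nicotine 3.0 (1.36 and 1.40, adjusted p = 0.0632 and 0.0607) and without nicotine 4.5 replicate 1 (1.36, adjusted p = 0.0510). At 1.5 mg/kg/day it held in 4 of 19 alternatives, and at 4.5 in 14, with adjusted p up to 0.139 and 0.138.

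The other Chrng probe sets were dimmer. One gave 7.30 and 6.32 in saline, 15 and 15.2 at 1.5 mg/kg/day, 24.4 and 16 at 3.0, and 22.7 and 26.7 at 4.5. There too all nicotine arrays lay above both saline arrays. The remaining probe set ranged from 1.78 to 6.84 in nicotine arrays and was 3.57 and 4.34 in saline, where nicotine and saline overlapped near the lowest values of the array. Chrnd and Chrng are neighbours on chromosome 1 in the reference, with 0 genes starting between them.

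Chrnd, the delta subunit, had intensities of 48.0 and 38.3 in saline, 60.7 and 71.6 at 1.5 mg/kg/day, 64.9 and 73.5 at 3.0, and 73.1 and 68.7 at 4.5. The 3 doses overlapped one another and lay above saline. Averaged over doses, Chrnd rose by 0.64 ± 0.13, with an adjusted p of 0.0326 and by 0.72 ± 0.16 at 4.5 mg/kg/day (adjusted p = 0.0475). At 1.5 and 3.0 it was at 0.55 ± 0.16 and 0.65 ± 0.16 (adjusted p = 0.123 and 0.0766). This was the smallest rise among the 4 subunit genes that passed. In the mean of the doses the call was lost without saline replicate 1 or 2 (0.70 and 0.58, adjusted p = 0.0581 and 0.117), without nicotine 1.5 replicate 2 (0.63, adjusted p = 0.0537), without either array of nicotine 3.0 (0.67 and 0.61, adjusted p = 0.0932 and 0.106) and without either array of nicotine 4.5 (0.63 and 0.65, adjusted p = 0.0660 and 0.0552). It was also lost with values as deposited (0.52, adjusted p = 0.0699) and with array weights (0.64, adjusted p = 0.0840), and held in 7 of 19 alternatives. At 4.5 mg/kg/day it held in 4 of 19 alternatives (adjusted p up to 0.393).

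Chrna1 encodes the alpha subunit, which carries the main part of the acetylcholine binding site. It read 218 and 87.5 in saline, 301 and 262 at 1.5 mg/kg/day, 439 and 352 at 3.0, and 356 and 444 at 4.5. The highest saline array lay below every nicotine array, and the arrays at 3.0 and 4.5 mg/kg/day lay above both at 1.5. Averaged over doses, Chrna1 rose by 1.34 ± 0.31, with an adjusted p of 0.0410. At 1.5, 3.0 and 4.5 mg/kg/day it was at 1.05, 1.45 and 1.53 (SE 0.38 each) and did not pass (adjusted p = 0.180, 0.0856 and 0.0574). The call in the mean of the doses was lost without saline replicate 2, where the change was 0.77 (adjusted p = 0.128), and without any one of the 6 nicotine arrays (1.28 to 1.40, adjusted p = 0.0556 to 0.113). Without saline replicate 1 the change was 1.92 (adjusted p = 0.00949). It was also lost with values as deposited (1.25, adjusted p = 0.0527) and with array weights (1.34, adjusted p = 0.0646), and held in 7 of 19 alternatives.

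Chrne, the adult epsilon subunit, was not tested because its mean level lay below the filter. Its intensities were 3.72 and 2.09 in saline, 9.54 and 6.01 at 1.5 mg/kg/day, 4.68 and 3.74 at 3.0, and 14.0 and 14.6 at 4.5. Both arrays at 4.5 were the highest of the 8, and every nicotine array was above both saline arrays, all at levels where most probe sets of the array were brighter. With no level filter Chrne was higher at 4.5 mg/kg/day (0.73 ± 0.15, adjusted p = 0.0464) and stood at 0.39 ± 0.12 averaged over doses (adjusted p = 0.105).

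Rapsn, the scaffold that binds receptors into clusters, was the only clustering gene to pass. It had intensities of 18.8 and 15.5 in saline, 36.4 and 55.8 at 1.5 mg/kg/day, 47.0 and 41.5 at 3.0, and 49.3 and 49.0 at 4.5. The doses overlapped except that both arrays at 4.5 were above those at 3.0, and saline was below all. Averaged over doses, Rapsn rose by 0.98 ± 0.15, with an adjusted p of 0.0137, by 0.94 ± 0.18 at 3.0 (adjusted p = 0.0420) and by 1.10 ± 0.18 at 4.5 mg/kg/day (adjusted p = 0.0220). At 1.5 it was at 0.90 ± 0.18 (adjusted p = 0.0553). In the mean of the doses the call was lost without saline replicate 2 (0.96, adjusted p = 0.0536) and without replicate 1 or 2 of nicotine 3.0 (0.96 and 1.01, adjusted p = 0.0585 and 0.0528). It held in 8 of 19 alternatives at 3.0 mg/kg/day and in 13 at 4.5.

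Musk encodes the kinase that starts clustering when agrin reaches the muscle. It read 22.8 and 7.71 in saline, 24.0 and 46.9 at 1.5 mg/kg/day, 33.2 and 21.9 at 3.0, and 32.8 and 129 at 4.5. Replicate 2 of nicotine 4.5 stood far above all other arrays, and as deposited the groups at 3.0 and 0 mg/kg/day overlapped. The change was 0.98 ± 0.42 averaged over doses (adjusted p = 0.168) and 1.61 ± 0.52 at 4.5 mg/kg/day (adjusted p = 0.101). It was 0.72 with the mean of the doses when nicotine 4.5 replicate 2 was left out.

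Dok7 encodes the adaptor that activates MuSK from inside the cell. Its brighter probe set read 178 and 203 in saline, 279 and 208 at 1.5 mg/kg/day, 269 and 299 at 3.0, and 295 and 216 at 4.5. One array each at 1.5 and 4.5 lay just above saline. The change was 0.52 ± 0.20 with the mean of the doses and did not pass (adjusted p = 0.137). The dimmer Dok7 probe set ranged from 6.54 to 19.7 in nicotine arrays and was 14.4 and 10.5 in saline, with overlap.

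Agrn was the brightest of the clustering genes and the one with the smallest change. Agrin is made by nerve, muscle and many epithelia, and only the nerve form is strongly active in clustering. The probe sets here were not resolved by form. Its brighter probe set read 431 and 638 in saline, 528 and 664 at 1.5 mg/kg/day, 557 and 447 at 3.0, and 568 and 353 at 4.5. All groups overlapped with their neighbours in level. The change was 0.05 ± 0.22 averaged over doses (adjusted p = 0.892), and its sign differed between doses, at 0.33 ± 0.27, -0.05 ± 0.27 and -0.13 ± 0.27. The sign for the mean of the doses also turned with values as deposited, without saline replicate 1 and without nicotine 4.5 replicate 1. The dimmer probe set ranged from 1.21 to 8.59 in nicotine arrays and was 4.52 and 2.43 in saline.

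Ache encodes acetylcholinesterase, which ends the signal at the endplate. It read 35.2 and 29.9 in saline, 77.0 and 50.7 at 1.5 mg/kg/day, 62.9 and 47.4 at 3.0, and 49.9 and 58.2 at 4.5. Saline lay below all nicotine arrays and the doses overlapped. The change was 0.70 ± 0.20 with the mean of the doses and did not pass (adjusted p = 0.0694). It passed only without nicotine 1.5 replicate 2, among 19 alternatives (0.80, adjusted p = 0.0385).

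**Figure D2:**
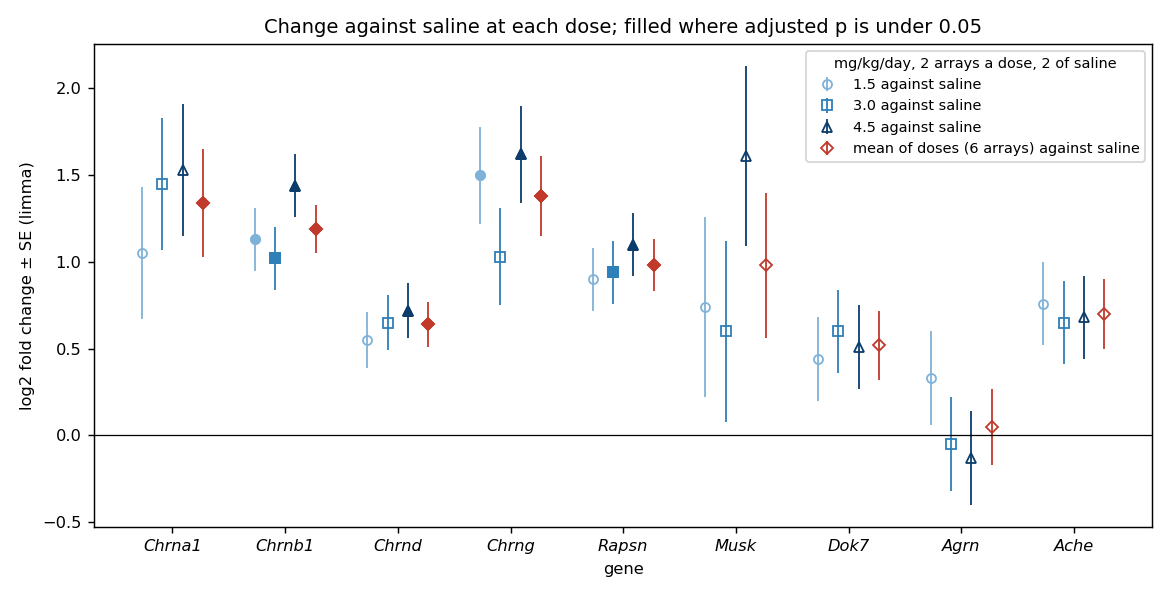
Log2 fold change against saline with its standard error from limma (vertical axis) for the 9 genes tested (horizontal axis), at 1.5, 3.0 and 4.5 mg/kg/day and for the mean of the doses, from 2 arrays per dose and 2 of saline. Filled symbols mark an adjusted p under 0.05: the mean of the doses for Chrna1, Chrnb1, Chrnd, Chrng and Rapsn, all of these but Chrna1 at 4.5 mg/kg/day, Chrnb1 and Chrng at 1.5, and Chrnb1 and Rapsn at 3.0.

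The separate doses gave fewer calls than their mean. At 1.5 mg/kg/day 2 of the 9 genes tested were higher (Chrnb1 and Chrng), against 0.729% of all genes. At 3.0 mg/kg/day 2 were higher (Chrnb1 and Rapsn), against 1.35%. At 4.5 mg/kg/day 4 were higher (Chrnb1, Chrnd, Chrng and Rapsn), against 2.91%. The comparisons share the saline arrays, so that a saline array that is low in a gene raises all 3 values. The median over the 9 genes was 0.76, 0.65 and 1.10 with dose, and over all genes 0.04, 0.06 and 0.06.

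A dose relation was asked for in 2 ways. A straight line over 0, 1.5, 3.0 and 4.5 mg/kg/day gave Chrna1 a slope of 0.33 ± 0.09 log2 units per mg/kg/day, Musk 0.31 ± 0.11, Chrng 0.29 ± 0.10, Chrnb1 0.28 ± 0.06, Rapsn 0.22 ± 0.06 and Chrnd 0.15 ± 0.04. None of the 9 genes passed by limma (adjusted p from 0.0608 to 0.609), and 0.287% of all genes had a rising slope that passed. At an unadjusted p under 0.05 there were 6 of the 9 genes, beside 27.2% of all genes. Saline counts as dose 0 in this line, so a step from saline to nicotine gives a slope even without a rise among the doses. Chrng, for example, had mean log2 levels of 5.42, 6.92, 6.45 and 7.04 at 0, 1.5, 3.0 and 4.5 mg/kg/day. An F test for any difference among the 3 nicotine doses called 0 of the 9 genes and 0% of all genes (limma, adjusted p from 0.688 to 0.977 for the 9 genes). At an unadjusted p under 0.05 it gave 0 of 9 and 1068 of 13586. This does not show that the doses act alike.

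Subunit levels were then set beside the muscle fibre genes of the same arrays. The mean log2 level of Chrna1, Chrnb1, Chrnd and Chrng was 6.49 and 5.91 in saline, 7.33 and 7.17 at 1.5 mg/kg/day, 7.27 and 7.19 at 3.0, and 7.48 and 7.56 at 4.5. The mean log2 level of the 20 muscle fibre genes was 10.72 and 10.27 in saline, 11.16 and 11.51 at 1.5 mg/kg/day, 11.48 and 11.28 at 3.0, and 11.41 and 11.63 at 4.5. In both, saline replicate 2 was lowest, saline replicate 1 next and nicotine 4.5 replicate 2 highest. The fibre mean was 11.41 ± 0.17 in nicotine arrays (SD, n = 6) and 10.49 ± 0.32 in saline arrays (SD, n = 2), a gap of 0.92.

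**Figure D3:**
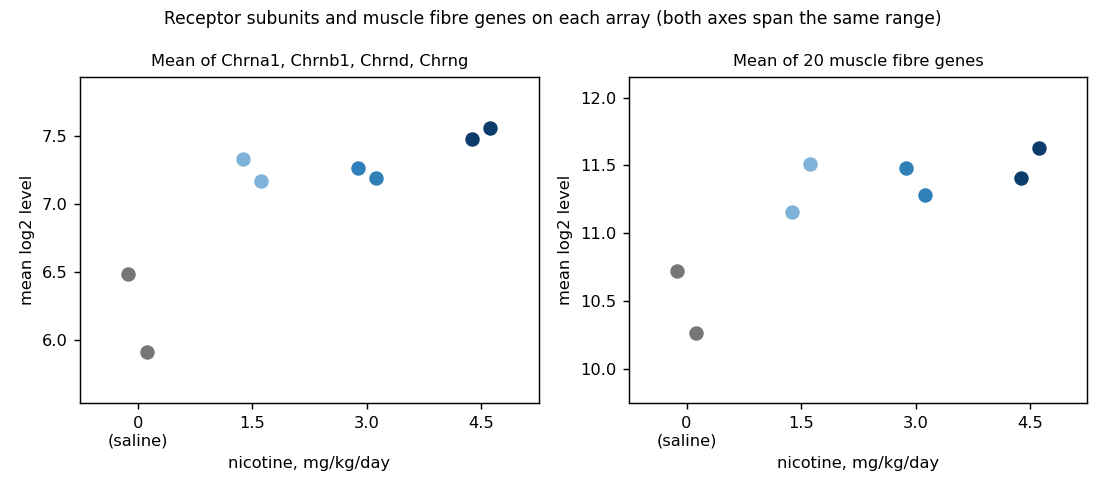
Mean log2 level per array of Chrna1, Chrnb1, Chrnd and Chrng (left) and of 20 muscle fibre genes (right) against nicotine dose in mg/kg/day, with 1 point per array. Both vertical axes span the same range and neither starts at 0. The 2 saline arrays are the lowest in both panels.

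With each array's fibre gene mean subtracted from every gene, none of the 5 genes that rose passed the test. The change for the mean of the doses was then 0.46 for Chrng, 0.42 for Chrna1, 0.28 for Chrnb1, 0.06 for Rapsn and -0.28 for Chrnd (adjusted p from 0.145 to 0.818). Agrn passed in the lower direction on this scale (-0.87, adjusted p = 0.0381). Musk was at 0.06, Ache at -0.22 and Dok7 at -0.40. This scaling moved the median of all genes to -0.85, against 0.07 before it, with 67 genes higher and 8445 lower. On it the members' median stood at 0.06 and that of the fibre genes at -0.10.

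**Figure D4:**
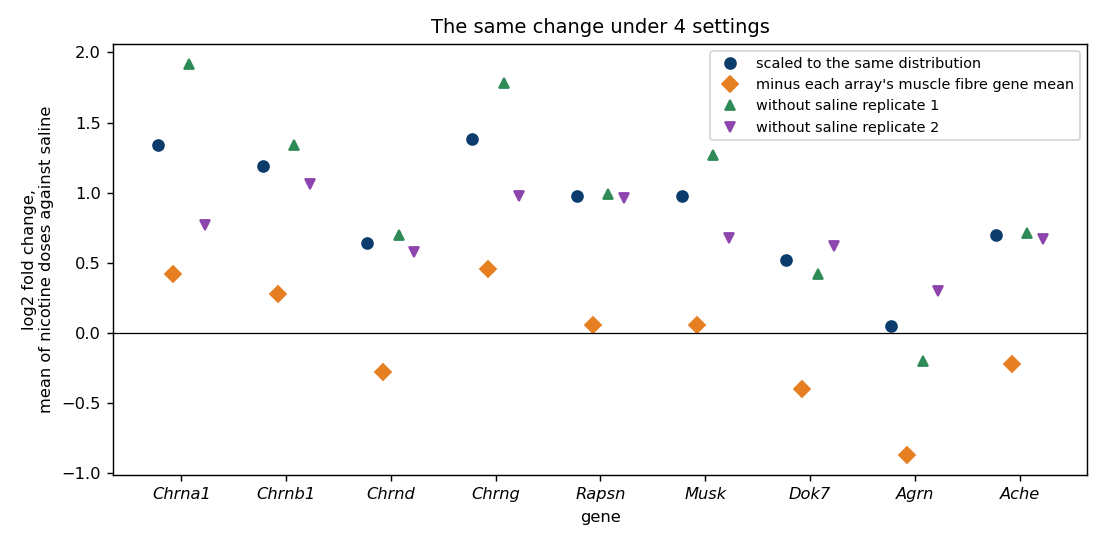
Log2 fold change for the mean of the nicotine doses against saline (vertical axis) of the 9 genes tested (horizontal axis), after scaling to the same distribution, after subtracting each array's muscle fibre gene mean, and without each saline array. Chrna1 moves most between the saline arrays, at 1.92 without replicate 1 and 0.77 without replicate 2, and all 9 genes are lower after the subtraction.

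Of 31 other genes of the endplate 26 were tested, and with the mean of the doses 1 rose, 1 fell and 24 did not pass, with a median of 0.26. Over all genes tested 4.75% were higher and 5.40% lower, so these shares lay near the background. Lamb2, the laminin chain of the synaptic matrix, rose by 0.79 ± 0.18 (adjusted p = 0.0424). Ncam1, an adhesion molecule of muscle and nerve, fell by 0.56 on the log2 scale (SE 0.14, adjusted p = 0.0485). Lama2, the laminin chain of the muscle basement membrane, was at 1.05 ± 0.29, and Plec, the cytoskeletal linker plectin, at 0.82 ± 0.23 (adjusted p = 0.0626 and 0.0654).

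Lrp4, the agrin receptor that binds MuSK, did not pass, at 0.24 ± 0.23 (adjusted p = 0.506). It read 144 and 77.4 in saline, 154 and 172 at 1.5 mg/kg/day, 124 and 89.6 at 3.0, and 80.1 and 104 at 4.5, with nicotine and saline overlapping. Utrn, the dystrophin relative of the endplate, did not pass either, at 0.76 ± 0.31 (adjusted p = 0.149). Colq, the collagen tail that anchors acetylcholinesterase, was below the filter and not tested, with intensities of 4.50 to 8.88 in nicotine arrays and of 7.36 and 7.53 in saline. At the single doses 0, 1 and 0 of the 26 partners changed, the 1 being a fall at 3.0 mg/kg/day, where 2.38% of all genes were lower.

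Myogenic factors and other genes of muscle formation had a median of 0.81 over 14 genes tested, and 3 of them rose, where 4.75% of all genes were higher. These were Mymk, which fuses myoblasts (1.86 ± 0.16, adjusted p = 0.00153), Cdh15, a cadherin of muscle precursors (1.21 ± 0.14, adjusted p = 0.00627), and Des, the intermediate filament desmin (0.79 ± 0.17, adjusted p = 0.0351). Myog, the factor best known for activating the subunit genes, read 197 and 69.9 in saline, 379 and 247 at 1.5 mg/kg/day, 280 and 258 at 3.0, and 311 and 476 at 4.5. All its nicotine arrays lay above saline, and the change of 1.40 ± 0.38 did not pass (adjusted p = 0.0597). Myod1 was at 0.84 ± 0.38 (adjusted p = 0.187). Of the 20 muscle fibre genes 9 rose and none fell, with a median of 0.82, beside 4.75% of all genes higher.

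Genes of the nerve side were measured on the same arrays. Of 15 motor nerve genes 10 were tested and 0 passed by limma with the mean of the doses. Their summed level was 231 to 1075 in nicotine arrays and 3553 and 308 in saline replicates 1 and 2, and Lhx3 was below the filter on every array. Their median was -0.83, with 1 of the 10 above 0. Isl1, a transcription factor of motor neurons, was at -1.40 ± 0.64, Snap25, a protein of vesicle release, at -1.34 ± 0.75 and Nefh, a neurofilament, at -0.79 ± 0.49 (adjusted p = 0.191, 0.269 and 0.318). Snap25 read 220 and 9.03 in saline and 2.46 to 36.2 in nicotine arrays. Nefh read 100 and 12.5 in saline and 6.06 to 31.4 in nicotine arrays, so for both genes saline replicate 2 lay within the nicotine range. Isl1 read 165 and 59.5 in saline, 187 on nicotine 1.5 replicate 1, and 22.1, 8.44, 10.6, 12.7 and 18.7 on the other nicotine arrays. Chat, the enzyme that makes acetylcholine, was the gene above 0, at 0.59 ± 0.18 (adjusted p = 0.0801), with all 6 nicotine arrays (15.5 to 33.0) above both saline arrays (9.85 and 11.6). The 9 Schwann cell genes tested had a median of 0.56 and 0 passed. Their summed level was 1684 to 2727 in nicotine arrays and 1636 and 691 in saline. The part of nerve and Schwann cells in the members' changes was not tested.

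The genes whose pattern over the 8 arrays was most like the mean of the 4 subunits were Setd7, a lysine methyltransferase, at Pearson r = 0.995, Arpp21 and Pi4k2a at 0.988, Trim35 and Rftn2 at 0.984, Git2 at 0.983, and the calpain Capn2 and its inhibitor Cast at 0.981. Chrnb1 itself stood at 0.984, Chrng at 0.966, Chrna1 at 0.953, Chrnd at 0.943 and Rapsn at 0.925, the first 4 being part of the mean. By r among all genes tested, Chrnb1 had rank 4, Chrng 31, Chrna1 84, Chrnd 129 and Rapsn 234. Ache was at 0.848 (rank 760), Musk at 0.719 (rank 1831), Dok7 at 0.681 (rank 2191) and Agrn at -0.155 (rank 8501). These values rest much on the saline arrays, which are the 2 arrays farthest from the median: without them r for the 8 look-alike genes lay between 0.697 and 0.953.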

How the data were processed

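The members and all gene lists were chosen with earlier results of these data known. The authors deposited 1 intensity per probe set and array, for 45101 probe sets on 8 Affymetrix arrays (platform per the labels' protocols); their summarization, background correction and scaling are not given in the sources used here, nor are detection calls. The number of arrays limits the precision. Probe sets were named from the platform annotation and updated by Entrez ID (34741 of 34945 with 1 gene; 932 named several genes and 9160 none).

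Values were taken as log2(intensity + 16) and quantile normalized, since array medians differed by 0.17. Each gene was represented by its brightest probe set. A level filter at the 40th percentile of probe set means kept 13586 of 18193 (74.7%). One limma 3.58.1 model (R 4.3.3) held all 4 groups (4 residual and 6.85 total degrees of freedom). Tests were two-sided, p-values were Benjamini-Hochberg adjusted over all genes tested, and the threshold was 0.05. Simulated arrays with independent noise were used only to check that the fit returned known changes on average. They held no differences in tissue makeup or RNA integrity. Named genes are the 10 members, up to 4 genes per list with the smallest p and Lrp4, Colq, Utrn, Myog and Myod1, besides the 8 most alike by Pearson r. Other list genes below the filter on all 8 arrays (Pgc, Gast, Lipf, Cdx1, Lhx3, Tbx22) were named after their values were seen. Alternatives changed the added constant, scaling, filter, probe set rule, array weights, replicate block and muscle scaling, or left out arrays. Promoter sequences are RefSeq's on GRCm38.p6. A planned difference between Chrng and Chrne is not reported, because Chrne lay below the level filter, where the added constant makes up most of its value.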

Additional observations from a re-analysis of the deposited data

How the results depend on the processing

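The count of changed members with the mean of the doses (5) was 1 to 4 when single arrays were left out, 3 with values as deposited, array weights or a replicate block (each without Chrna1 and Chrnd, whose adjusted p was 0.0531 and 0.0646 with the block), and 3 without both saline replicate 2 and nicotine 1.5 replicate 2, the liver-high arrays, a setting chosen after seeing the data. It was 1 (Agrn, lower) after subtracting the muscle fibre mean. At 1.5 mg/kg/day (2) it was 0 to 3 without single arrays, 1 with values as deposited or medians centred, and 0 with array weights, a replicate block, fibre subtraction or without the liver-high arrays. At 3.0 (2) it was 0 to 3 without single arrays, 1 with an added constant of 64, and 0 as deposited, with a replicate block, fibre subtraction or without the liver-high arrays. At 4.5 (4) it was 0 to 4 without single arrays and 1 with fibre subtraction (Agrn). For the slope (0) it was 0 to 2 without single arrays and 1 with fibre subtraction (Agrn). The cause of these shifts was not tested. The arrays called liver-high were the brightest in liver genes in their groups. Saline replicate 1, which stayed in, also had a summed liver level of 14880, so leaving them out did not remove liver genes from saline.

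Over all genes, 1380 changed with the mean of the doses, and 355 to 1490 without single arrays, 618 with array weights, 849 with a replicate block and 8512 with fibre subtraction. At 1.5 mg/kg/day 337 became 104 to 911 without single arrays, 157 with a constant of 1, 130 with array weights, 157 with a replicate block, 3942 with fibre subtraction and 560 without the liver-high arrays. At 3.0, 506 became 52 to 994, and 278 (replicate block), 5214 (fibre subtraction) and 896 (liver-high arrays out). At 4.5, 934 became 154 to 1367, and 441 (array weights), 522 (replicate block) and 7475 (fibre subtraction). For the slope, 109 became 0 to 792 without single arrays, 164 with a constant of 1, 1 with a constant of 64, array weights, mean of probe sets or no filter, 2 with medians centred, 203 as deposited, 242 with the filter at the 60th percentile, 0 with a replicate block or the liver-high arrays out, and 5172 with fibre subtraction. The F test among doses gave 0, with 0 to 12 without single arrays and 135 without the liver-high arrays. The higher genes as deposited were 30 of 262, 99 of 462, 206 of 942 and 41 of 203 at 1.5, 3.0, 4.5 and for the slope, against 99 of 337, 183 of 506, 395 of 934 and 39 of 109; with medians centred, 56 of 318 at 1.5 and 2 of 2 for the slope; and with fibre subtraction 12, 46, 70 and 41. Replicate numbers carry no pairing in the labels, and deviations of same-numbered arrays correlated between -0.221 and 0.334, so the replicate block describes a shared number only.

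Signs turned mainly under fibre subtraction: Chrnd to -0.28 with the mean of the doses, -0.29, -0.23 and -0.30 at 1.5, 3.0 and 4.5 mg/kg/day and -0.06 per mg/kg/day; Dok7 to -0.40, -0.41, -0.28, -0.51 and -0.09; Ache to -0.22, -0.08, -0.23, -0.34 and -0.08; Musk to -0.10 at 1.5 and -0.28 at 3.0; and Agrn to -0.87 and, at 1.5, -0.51. Agrn, never far from 0, also turned to -0.04 as deposited, and to -0.20 and -0.04 without saline replicate 1 and nicotine 4.5 replicate 1 (range without single arrays -0.20 to 0.30). At 3.0 it turned to 0.02 with medians centred, 0.21 without saline replicate 2 or the liver-high arrays and 0.08 without nicotine 3.0 replicate 2. At 4.5 it turned to 0.12, 0.15 and 0.13 without saline replicate 2, nicotine 4.5 replicate 2 and the liver-high arrays, and its slope to 0.00 without nicotine 4.5 replicate 2 (range -0.11 to 0.00).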
